A study of Rattus norvegicus with 27 samples.

Results

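The genes described here are the rat fibrillar collagen genes Col1a1 (ENSRNOG00000003897), Col1a2 (ENSRNOG00000011292) and Col3a1 (ENSRNOG00000003357), 3 of the 32753 Ensembl gene IDs in the count table. They were chosen by ID. The count table gives IDs only, so the names are those attached to the chosen IDs and could not be checked within the table. RNA was sequenced from primary lung fibroblasts of Sprague-Dawley rats, isolated on magnetic beads against CD90, the surface antigen Thy-1. The cells grew in MucilAir medium on plastic, for which the labels give no stiffness, or on a soft silicone (polydimethylsiloxane, PDMS) of 3 to 5 kPa. Both surfaces carried a coat of rat tail collagen I applied at 38 µg/ml. The labels define 7 groups by substrate and day in culture. Those on PDMS were taken at days 2, 4, 7 and 14, and those on plastic at days 4, 7 and 14, with 4 libraries each except Plastic day 7, which has 3. The count table's column headers mark every library as WT, Non and MonoCulture, without saying what Non stands for. No age is given, and neither labels nor headers tie a library to an animal or a separate culture, so each p-value is set against library-to-library spread alone, and some of that may be technical.

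Fibrillar collagens are the rope-like proteins that carry tension in connective tissue. Fibroblasts secrete them as procollagen chains that wind into a helix, are trimmed outside the cell and line up into cross-linked fibrils. Col1a1 and Col1a2 encode the chains of type I collagen, the main collagen of scar and of stiff tissue, and Col3a1 encodes the chain of type III collagen, which is abundant in distensible organs such as lung and in early wound matrix. Transforming growth factor beta and mechanical load are known to raise their transcription in fibroblasts, and deposition of both types is a hallmark of lung fibrosis.

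Col1a2 could not be followed. Its ID held 13 reads in all 27 libraries together, out of 574 M reads (M, 1000000). It had 0 reads in 16 libraries, 1 read in 9 and 2 reads in the remaining 2, which were PDMS day 4 replicate 4 and Plastic day 4 replicate 4. By group the sum was 2 reads in each of the 6 groups with 4 libraries and 1 read in Plastic day 7. A count of 0 allowed at most 0.174 reads per M in the shallowest of those 16 libraries, for counting error only. In the same libraries Col1a1 never fell below 11373 reads and Col3a1 never below 8628. How the deposited counts treated reads that fit more than 1 annotated gene is not given in the sources used here. The 13 reads were therefore not taken as the level of the Col1a2 transcript. The gene did not pass the filter on low counts and enters no comparison below. The data therefore bear on Col1a1 and Col3a1, and every sum over the 3 collagens is in effect a sum over these 2.

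Each library held between 17.3 and 25.3 M counts, so counting error on Col1a1 and Col3a1 was far below the spread between replicates. No library pair of a group agreed within sampling noise, but Plastic day 4 replicates 1 and 2 (r = 0.994 across genes) and Plastic day 14 replicates 2 and 3 (r = 0.993) were closer than all other pairs of the same group (at most 0.988). Markers of fibroblasts, leukocytes, epithelium, endothelium, smooth muscle and mesothelium could not be looked up by ID, so the labelled cell type was not checked. In bulk RNA, fewer cells of a type and less RNA per cell cannot be told apart.

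On PDMS, Col3a1 was low at day 2 and rose by day 4, and no difference between days 4, 7 and 14 passed the test. The difference of Col1a1 between days 2 and 4 was smaller in size and did not pass the test. Whether the genes differed from each other in this step was not tested. At PDMS day 2 the libraries held 573, 421, 2027 and 3392 CPM of Col3a1 in replicates 1 to 4, where CPM is the count per 1000000 of the library size after TMM scaling, a correction for differences in library composition. At PDMS day 4 they held 8227, 4086, 10738 and 10003 CPM. All 4 libraries of day 4 thus lay above all 4 of day 2, with the nearest pair at 4086 and 3392 CPM. Col3a1 rose 5.15-fold between these days (log2 fold change 2.37 ± 0.67, SE, edgeR quasi-likelihood test with Benjamini-Hochberg adjustment over 14258 genes, adjusted p = 0.0325). In this comparison 10.0% of genes were called, 5.17% as higher, and 9.22% of genes had no overlap between the days. The call held with DESeq2 (adjusted p = 0.00359), limma-voom (0.0168) and the replicate number as a block over all 7 groups in edgeR (0.0183). The block fit is not a paired test of these days. In the main edgeR fit the call rested on nearly every library. It ended without PDMS day 2 replicate 1 (adjusted p = 0.126), replicate 2 (0.0733) or replicate 3 (0.0636), without PDMS day 4 replicate 1 (0.0654), replicate 3 (0.0693) or replicate 4 (0.0846), and in a fit of these groups alone (0.134), with log2 fold changes of 2.04 to 2.5 in these fits.

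For Col1a1 the PDMS day 2 libraries held 462, 1114, 4209 and 3186 CPM in replicates 1 to 4, and those of PDMS day 4 held 7504, 2941, 7385 and 11859 CPM. Replicate 2 of day 4 lay within the range of day 2, and the other 3 lay above it. The log2 fold change was 1.73 ± 0.60 (SE, edgeR adjusted p = 0.0669). The gene passed with DESeq2 (adjusted p = 0.0247) and with limma-voom (adjusted p = 0.0388), and with edgeR when PDMS day 2 replicate 4 (adjusted p = 0.042) or PDMS day 4 replicate 2 (adjusted p = 0.0432) was left out.

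**Figure D1:**
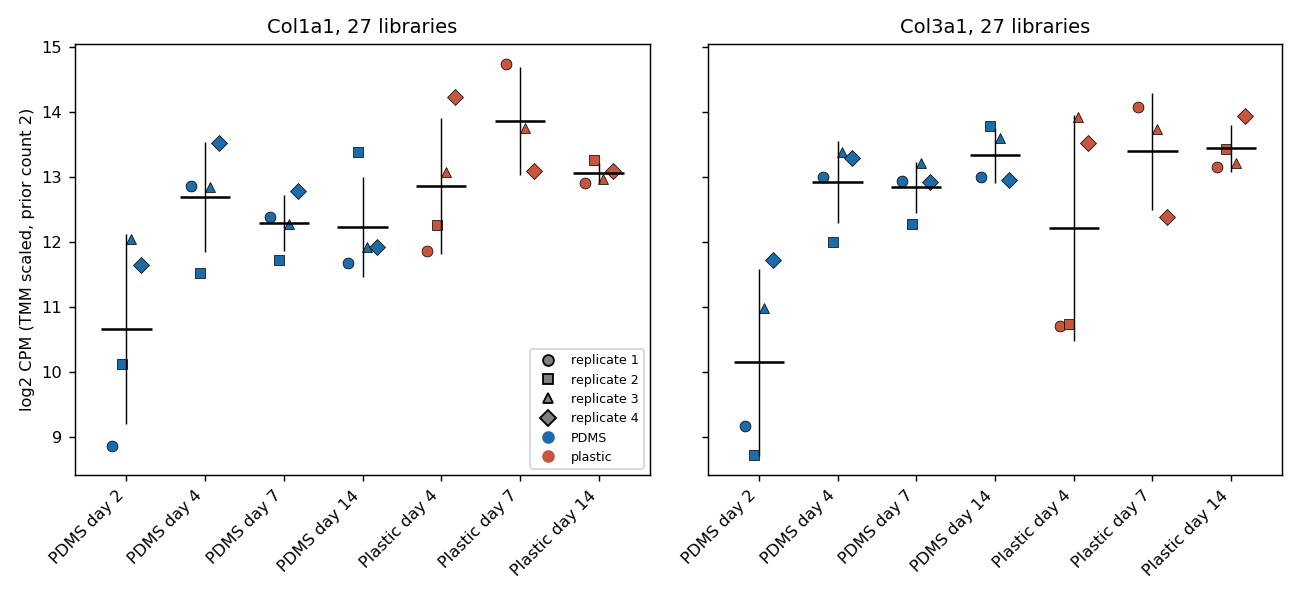
Level of Col1a1 (left) and Col3a1 (right) in each of the 27 libraries, as log2 CPM (vertical axis) by group (horizontal axis). Horizontal bars are group means, vertical bars 1 SD, and marker shapes are replicate numbers. PDMS day 2 is the lowest group for both genes, and Plastic day 4 splits into libraries at 1668 and 1712 CPM and libraries at 11730 and 15501 CPM of Col3a1.

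Later steps on PDMS were small against the spread. The PDMS day 7 libraries held 7876, 4964, 9567 and 7829 CPM of Col3a1, and those of PDMS day 14 held 8188, 14187, 12454 and 7942 CPM. All 8 of these libraries lay above the whole day 2 group. For days 7 and 2 the share of all genes without overlap was not computed. Relative to day 2, Col3a1 stood 6.67-fold higher at day 14 (log2 fold change 2.74 ± 0.68, SE, edgeR adjusted p = 0.0021). This call held in each of 8 fits that left out 1 library (highest adjusted p = 0.00904), in a comparison that called 51.6% of genes, 24.3% as higher, and left 40.0% of genes without overlap. It shares its day 2 libraries with the day 4 comparison, so it is not separate evidence on how low day 2 was. From day 4 to day 7 the Col3a1 log2 fold change was -0.13 ± 0.63 (95% interval -1.44 to 1.18, edgeR adjusted p = 0.981). From day 7 to day 14 it was 0.50 ± 0.64 (-0.82 to 1.82, adjusted p = 0.644). These steps called 0.147% and 5.53% of all genes.

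Col1a1 on PDMS showed no difference between days 4, 7 and 14 that passed the test. Its libraries held 5382, 3381, 4966 and 7038 CPM at PDMS day 7, and 3279, 10628, 3903 and 3894 CPM at PDMS day 14. At day 14 replicate 2 stood apart, and the other 3 libraries lay within 3279 to 3903 CPM, inside the range of day 2. Against day 2 the Col1a1 log2 fold change at day 14 was 1.27 ± 0.59 (SE, edgeR adjusted p = 0.0765). It was 0.72 without PDMS day 14 replicate 2 (adjusted p = 0.329) and 1.77 without PDMS day 2 replicate 3 (adjusted p = 0.0277), and limma-voom gave 1.55 (adjusted p = 0.0309). From day 4 to day 14 it was -0.45 ± 0.59 (adjusted p = 0.578), or -1.01 without PDMS day 14 replicate 2 (adjusted p = 0.223), with 28.6% of all genes called in that comparison.

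On plastic, no difference between days passed the test for either gene, and the spread at day 4 was wide. Plastic day 4 replicates 1 to 4 held 1668, 1712, 15501 and 11730 CPM of Col3a1, a 9.29-fold range. The low pair, replicates 1 and 2, is the closely alike pair of that group. Plastic day 7 replicates 1, 3 and 4 held 17364, 13691 and 5347 CPM, and Plastic day 14 held 9168, 11119, 9559 and 15788 CPM. The Col3a1 log2 fold change from day 4 to day 14 was 0.58 ± 0.64 (SE, edgeR adjusted p = 0.507), while 32.6% of all genes were called between these days. From day 4 to day 7 it was 0.66 ± 0.68 (adjusted p = 0.603) with 0% of genes called (2665 at an unadjusted p under 0.05, 388 called by DESeq2 and 2 by limma-voom), and from day 7 to day 14 -0.09 ± 0.68 (adjusted p = 0.973) with 0.0842% called. Plastic day 4 replicate 3 weighed most on the Col3a1 steps from day 4: without it they were 1.31 to day 7 (adjusted p = 0.243) and 1.23 to day 14 (adjusted p = 0.155), while without replicate 1 or 2 of that group they were 0.33 and 0.24.

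Col1a1 on plastic was highest at day 7. Plastic day 4 held 3728, 4905, 8666 and 19217 CPM, Plastic day 7 held 27560, 13863 and 8701 CPM, and Plastic day 14 held 7689, 9841, 8025 and 8777 CPM. The 4 libraries of Plastic day 14 lay within 1.28-fold of each other, the narrowest range of either gene in any group. The log2 fold change of Col1a1 was 0.87 ± 0.63 from day 4 to day 7 (adjusted p = 0.45), -0.96 ± 0.63 from day 7 to day 14 (adjusted p = 0.514) and -0.09 ± 0.58 from day 4 to day 14 (adjusted p = 0.922). Without Plastic day 7 replicate 1 the steps into and out of day 7 were 0.31 and -0.39, and without Plastic day 4 replicate 4 the step into day 7 was 1.53 (adjusted p = 0.207).

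Col1a1 stood lower on PDMS than on plastic at day 7, where its libraries did not overlap, but the difference did not pass adjustment over all genes. The highest PDMS day 7 library held 7038 CPM and the lowest Plastic day 7 library 8701 CPM. Group means were 5192 ± 1503 CPM on PDMS (SD, n = 4) and 16708 ± 9746 on plastic (SD, n = 3). The log2 fold change was -1.69 ± 0.63 (SE, edgeR adjusted p = 0.158, unadjusted p = 0.0138). Substrates at day 7 did not overlap for 18.3% of genes, and 0.849% were called, 0.701% as lower on PDMS. The adjusted p of Col1a1 was between 0.0716 and 0.615 over 16 alternative fits, all with Col1a1 lower on PDMS. Without Plastic day 7 replicate 1, the library with the most Col1a1 of all, the log2 fold change was -1.12 (adjusted p = 0.615). Col3a1 at day 7 overlapped between the substrates (log2 fold change -0.68 ± 0.68, adjusted p = 0.645).

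At days 4 and 14 neither collagen differed between the substrates beyond the spread, with 0% of all genes called by edgeR at either day. At an unadjusted p under 0.05 edgeR had 1246 genes at day 4 and 1266 at day 14, and after adjustment DESeq2 called 17 and 113 and limma-voom 0 and 2. At day 4 the log2 fold change of PDMS over plastic was -0.30 ± 0.58 for Col1a1 (95% interval -1.51 to 0.91) and 0.11 ± 0.63 for Col3a1 (-1.20 to 1.42). Leaving out Plastic day 4 replicate 4 turned Col1a1 to 0.36, leaving out Plastic day 4 replicate 1 or 2 turned Col3a1 to -0.22, and leaving out PDMS day 4 replicate 3 turned it to -0.04. At day 14 it was -0.66 ± 0.59 for Col1a1 (-1.88 to 0.55) and -0.09 ± 0.63 for Col3a1 (-1.41 to 1.22). For Col1a1 3 of 4 PDMS day 14 libraries lay below all plastic ones, and replicate 2, at 10628 CPM, lay above them all. Without it the Col1a1 difference at day 14 was -1.22 (adjusted p = 0.536). These intervals leave room for differences of more than 2-fold in at least 1 direction.

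The course over days was not shown to depend on the substrate. For days 7 and 4, the difference between the substrates' log2 fold changes (an interaction term) was -1.39 ± 0.86 for Col1a1 (SE, edgeR adjusted p = 0.994) and -0.79 ± 0.93 for Col3a1 (adjusted p = 0.994). Without Plastic day 4 replicate 4 the Col1a1 term was -2.05, and without Plastic day 7 replicate 1 it was -0.82. For days 14 and 4 it was -0.36 ± 0.83 for Col1a1 (adjusted p = 0.967) and -0.20 ± 0.90 for Col3a1 (adjusted p = 0.985). Here the Col1a1 term was -1.03 without Plastic day 4 replicate 4 and -0.04 without PDMS day 4 replicate 4. For days 14 and 7 it was 1.02 ± 0.86 for Col1a1 (adjusted p = 0.805) and 0.59 ± 0.93 for Col3a1 (adjusted p = 0.905). Of all genes 0% were called by edgeR in any of these 3 terms, in the order given with 419, 971 and 980 genes at an unadjusted p under 0.05, and DESeq2 called 0, 4 and 1 and limma-voom 0 in each.

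**Figure D2:**
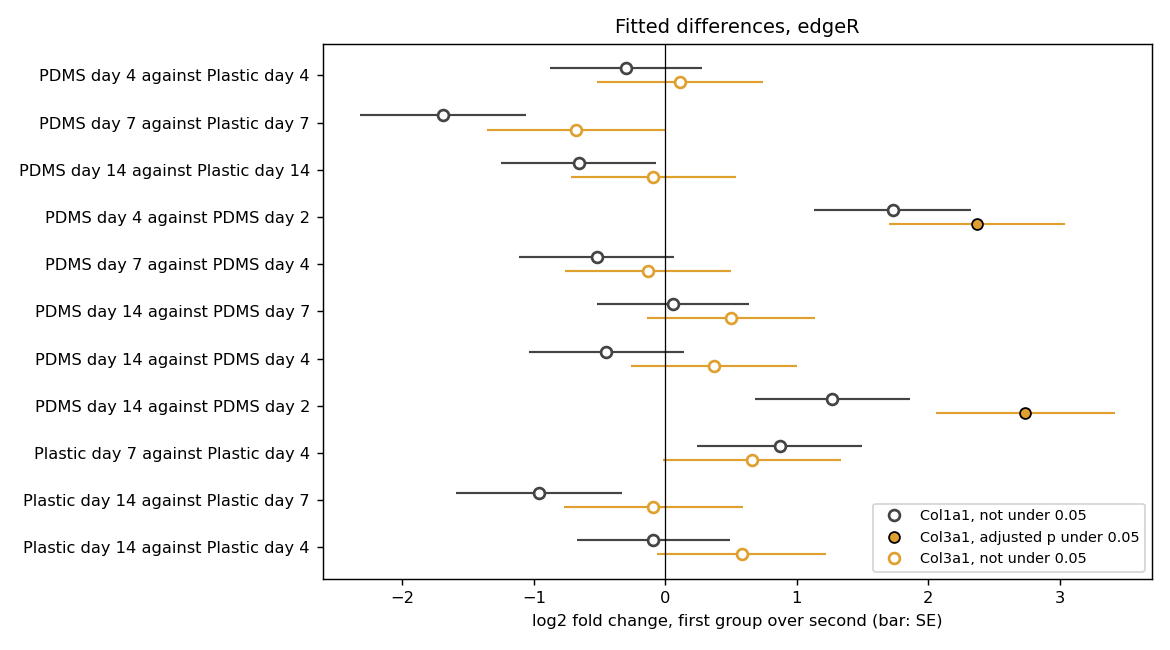
Fitted log2 fold changes (horizontal axis, bar = SE) of Col1a1 and Col3a1 in the 11 comparisons of groups, first group over second. Filled points have an edgeR adjusted p under 0.05: only Col3a1 from PDMS day 2 to day 4 and from PDMS day 2 to day 14.

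Ordered by mean log2 CPM, Col1a1 was lowest in PDMS day 2 (10.66 ± 1.46, SD, n = 4). Then came, still on PDMS, day 14 (12.23 ± 0.77), day 7 (12.29 ± 0.44) and day 4 (12.69 ± 0.84), followed on plastic by day 4 (12.86 ± 1.05), day 14 (13.06 ± 0.16) and day 7 (13.87 ± 0.84, n = 3). Fold changes are of fitted means of counts, so their sign can differ from that of a small step in mean log2 CPM. The 4 PDMS groups took the lower places and the 3 plastic groups the upper ones. Col3a1 was lowest in PDMS day 2 (10.15 ± 1.44), then Plastic day 4 (12.22 ± 1.74). The later PDMS groups followed with day 7 (12.84 ± 0.40), day 4 (12.92 ± 0.64) and day 14 (13.34 ± 0.42), and Plastic day 7 (13.40 ± 0.90, n = 3) and Plastic day 14 (13.44 ± 0.36) were highest. In that order the substrates were mixed. Neighbouring groups overlapped in their libraries at all 6 steps for each gene, and no neighbouring step passed the edgeR test except Plastic day 4 over PDMS day 2 for Col3a1 (log2 fold change 2.25 ± 0.66, adjusted p = 0.0335), in which both the substrate and the day differ. That comparison called 10.8% of genes, 6.03% as higher. Its Col3a1 call ended without PDMS day 2 replicate 1 (adjusted p = 0.131), replicate 2 (0.079) or replicate 3 (0.0534), without Plastic day 4 replicate 3 (0.0983, log2 fold change 1.64) or replicate 4 (0.1), and in a fit of those groups alone (0.308). The steps were compared after the order was seen.

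Both genes were more variable between replicates than most. The biological coefficient of variation was 0.555 for Col1a1 and 0.598 for Col3a1, against a median of 0.243 over the genes tested, and 82.6% and 85.2% of genes had a lower value. Within single groups the highest library exceeded the lowest by 1.28-fold to 9.10-fold for Col1a1 and by 1.72-fold to 9.29-fold for Col3a1. The widest ranges were at the earliest day of each substrate, PDMS day 2 for Col1a1 and Plastic day 4 for Col3a1. The 7 groups accounted for 57.8% of the variance of log2 CPM of Col1a1 and 62.3% of that of Col3a1, against a median of 51.1% over all genes.

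Within groups, libraries high in 1 gene of the pair tended to be high in the other. The same library was highest in both genes only in PDMS day 14 (replicate 2) and Plastic day 7 (replicate 1). As deviations from the group mean of log2 CPM, Col1a1 and Col3a1 had a Pearson r of 0.79 (permutation within groups, two-sided p = 0.00069, 100000 resamples) and a Spearman rho of 0.86 (permutation p = 7e-05) over 27 libraries. Without PDMS day 2 replicates 1 and 3, the libraries farthest from the median of Col1a1, r was 0.80. This was the only relation of this kind computed, so it has no background over other gene pairs. It is not shown to be particular to these genes. The closely alike pairs count as separate libraries in it.

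Counted as a share of all reads, these collagens were least prominent at PDMS day 2. Together they took 0.406% ± 0.301 of reads at PDMS day 2 (SD, n = 4), with libraries at 0.112%, 0.182%, 0.644% and 0.687%. PDMS cells at day 4 devoted 1.64% ± 0.627 to them. The later PDMS groups had 1.3% ± 0.289 (day 7) and 1.57% ± 0.606 (day 14). All 4 libraries of PDMS day 2 lay below all other PDMS libraries, the lowest of which held 0.774%. The plastic groups had shares of 1.66% ± 1.21 (day 4), 2.66% ± 1.27 (day 7, n = 3) and 1.81% ± 0.278 (day 14). The largest share, 3.94%, was in Plastic day 7 replicate 1, and the smallest on plastic, 0.575%, in Plastic day 4 replicate 1. As a sum over chosen genes the share was not tested.

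By reads, which also depend on transcript length, Col1a1 was the top gene in 4 libraries and among the top 10 in 19 of 27, and Col3a1 was the top gene in 3 and among the top 10 in 22. Col1a1 led in PDMS day 4 replicate 4, Plastic day 4 replicate 4 and Plastic day 7 replicates 1 and 3. At the other end, PDMS day 2 replicate 1 had Col1a1 at rank 242 and PDMS day 2 replicate 2 had Col3a1 at rank 267. The other libraries of PDMS day 2, replicates 3 and 4, had Col1a1 at rank 12 each and Col3a1 at ranks 33 and 9.

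**Figure D3:**
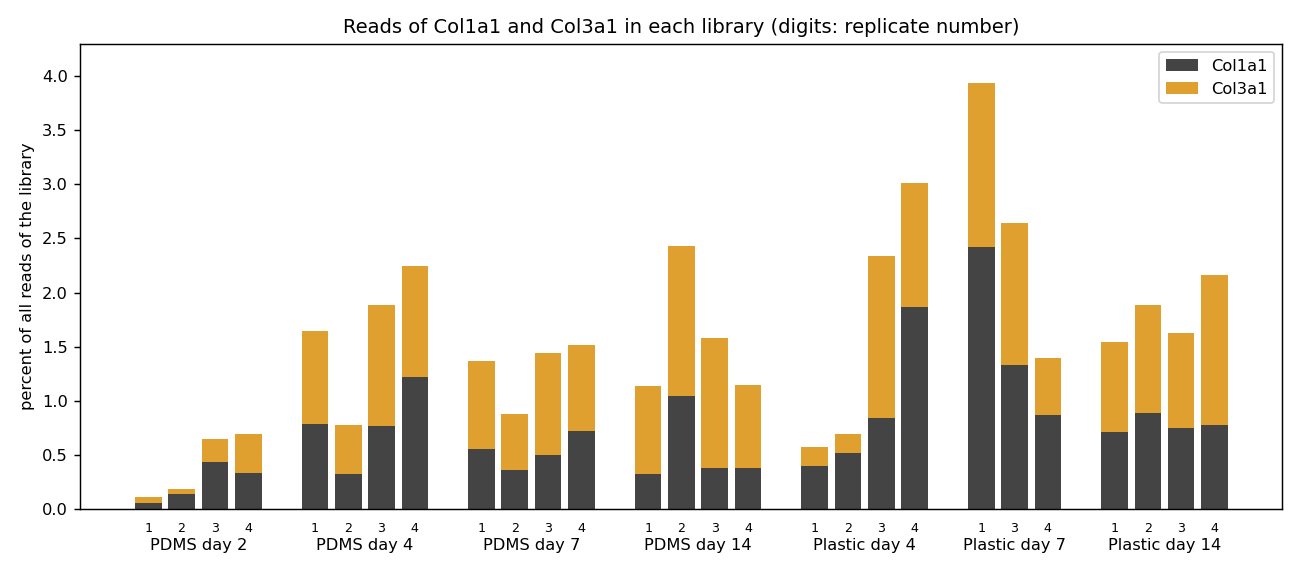
Percent of all reads of each library (vertical axis) that belong to Col1a1 (dark) and Col3a1 (light, stacked on top), by group, with the replicate number under each bar. Col1a2 is not drawn because no library held more than 2 of its reads. Stacks run from 0.112% in PDMS day 2 replicate 1 to 3.94% in Plastic day 7 replicate 1.

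The balance between the genes was read from the ratio of Col3a1 to Col1a1 reads within each library, in which library scaling cancels. Because the transcripts differ in length, only its change between groups can be read, and a ratio of 1 does not mean equal numbers of molecules. On PDMS the geometric mean of the ratio was 0.70 at day 2, 1.17 at day 4, 1.46 at day 7 and 2.16 at day 14. The plastic groups had geometric means of 0.643 (day 4), 0.726 (day 7) and 1.3 (day 14). At each of the 3 shared days the mean was higher on PDMS.

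At day 7 the PDMS libraries had ratios of 1.46, 1.47, 1.93 and 1.11, and the plastic libraries 0.63, 0.988 and 0.614. They did not overlap, and the difference of means was 1.01 on the log2 scale (two-sided exact permutation p = 0.0286, the smallest that 4 against 3 libraries can give, 0.0857 after Benjamini-Hochberg adjustment over 6 tests of the ratio). At day 14 PDMS had 2.5, 1.33, 3.19 and 2.04 and plastic 1.19, 1.13, 1.19 and 1.80, which overlap through PDMS day 14 replicate 2 and Plastic day 14 replicate 4 (difference 0.73, exact p = 0.0571, adjusted 0.114). At day 4 PDMS had 1.10, 1.39, 1.45 and 0.843, and plastic had 0.447, 0.349, 1.79 and 0.61 (difference 0.86, exact p = 0.171, adjusted 0.171). Plastic day 4 replicate 3 exceeded every PDMS day 4 library.

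Over days on PDMS, the day 2 libraries had ratios of 1.24, 0.378, 0.482 and 1.06, all below the 4 of day 14 (difference 1.62, exact p = 0.0286, adjusted 0.0857). From PDMS day 4 to PDMS day 14 the difference was 0.88 (exact p = 0.0857, adjusted 0.129), and from Plastic day 4 to Plastic day 14 it was 1.02 (exact p = 0.114, adjusted 0.137). None of the 6 ratio comparisons passed after adjustment. With 4 against 4 libraries the smallest exact p is 0.0286, so a single comparison could not have passed over 6 tests on its own.

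**Figure D4:**
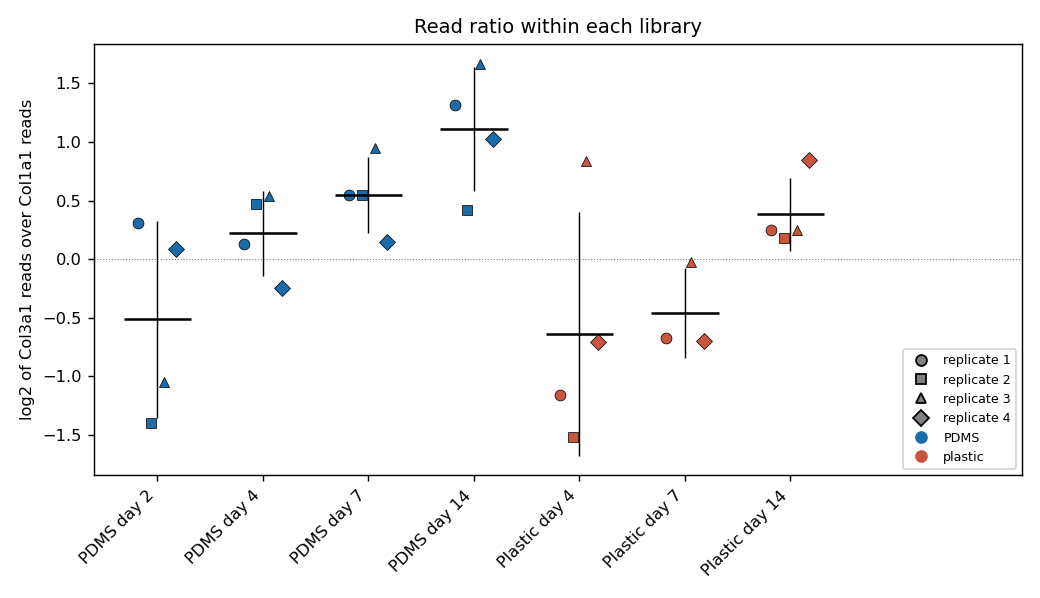
Log2 ratio of Col3a1 to Col1a1 reads (vertical axis) in each library, by group. Horizontal bars are means, vertical bars 1 SD, and marker shapes are replicate numbers. The 4 PDMS day 7 libraries lie above the 3 Plastic day 7 libraries, and the PDMS day 14 group has the highest mean, 1.11.

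The genes most like the collagens were sought by the Pearson r of log2 CPM with the mean of Col1a1 and Col3a1 over the 27 libraries, among 10508 other genes with a mean of at least 5 CPM. The median r was -0.03, and 5% of genes lay above 0.78. The highest were ENSRNOG00000008749 (r = 0.97, Spearman rho 0.94, mean 1361 CPM) and ENSRNOG00000012840 (r = 0.97, rho 0.89, mean 5093 CPM). ENSRNOG00000008749 followed Col1a1 more closely (r = 0.95) than Col3a1 (0.91), and ENSRNOG00000012840 followed Col3a1 (0.95) more closely than Col1a1 (0.89). ENSRNOG00000008749 had 460 ± 359 CPM in the PDMS day 2 group (SD, n = 4), 1340 ± 506 in PDMS day 14 and 2357 ± 959 in Plastic day 7 (n = 3). The lowest were ENSRNOG00000004026 (r = -0.89, mean 107 CPM) and ENSRNOG00000026293 (r = -0.89, mean 156 CPM). These values describe likeness across libraries that share days and substrates and carry no test.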

How the data were processed

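The authors deposited whole-number read counts per Ensembl rat gene ID. One further column, 1 of 28, matched no sample and was left out, as were the authors' scaled and variance-stabilized tables. Libraries came from 200 ng of total RNA and the TrueSeq RNA Sample Prep Kit, per the labels' protocols. The submitters' processing notes name FastQC 0.11.2, STAR, Cufflinks 2.2.1 and DESeq2, and the series design text adds bamUtil 1.0.11 and dupRadar 1.4 for duplicates and names Cufflinks for expression profiles. The program behind the whole-number counts, its strand setting, the build and the annotation: not given in the sources used here. Reads of overlapping genes may have been lost or split.

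The analysis used edgeR 4.0.16 (R 4.3.3): filterByExpr by group (minimum count 10, minimum total 15), TMM scaling, and a quasi-likelihood fit of group means to all 27 libraries (20 residual degrees of freedom). Calls were two-sided, at a Benjamini-Hochberg adjusted p under 0.05 over 14258 genes. A standard error is the absolute log2 fold change divided by the root of the F statistic. Log2 CPM carries a prior count of 2. Ratios were tested by exact permutation over libraries. DESeq2 1.42.0 and limma 3.58.1 were alternatives, beside other scalings, filters, blocks and left-out libraries.

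By rule, the text names the members and the 2 IDs of highest and 2 of lowest correlation with them. Members, lists and tests were chosen with earlier results of these data known. With 0 of 32753 IDs matched to a symbol, the 12 gene lists set by symbol (related collagens, collagen modification, cross-linking, growth factor targets, cell type markers) were not counted. The rule's mean over 3 members became a mean over 2, since Col1a2 had almost no reads. RefSeq's promoter table held 1 member, Col1a2, so no promoter was searched.

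The labels number replicates without saying what a number marks. Same-numbered deviations from group means correlated above 0.1 in every pair only between days 2 and 4 on PDMS (0.14 to 0.57). There the numbers were taken to pair the libraries, from the data and not from the labels. The main fit did not use this pairing, so its standard errors, p-values and left-out fits for these days are unpaired. The number entered only as a block over all 7 groups in an alternative edgeR fit, which is not a paired test of these days. That fit gave 2.55 for Col3a1 (adjusted p = 0.0183) and 1.79 for Col1a1 (adjusted p = 0.0636).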

Additional observations from a re-analysis of the deposited data

Results flagged for a closer look

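Within groups of 4, the most extreme library was compared with its neighbours by Dixon's ratio of gap to range at the 95% level. Of 24 sets of values (Col1a1, Col3a1, their share and their ratio), 2 exceeded the limit, and about 1.2 would by chance. One was Col1a1 in PDMS day 14, where replicate 2 held 10628 CPM and the others 3279 to 3903. The other was the log2 ratio of Col3a1 to Col1a1 in Plastic day 14, at 0.85 in replicate 4 and 0.18 to 0.25 in the others.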

How the results depend on the processing

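Col3a1 from PDMS day 2 to day 14 kept its direction and call in all 17 alternatives (log2 fold change 2.42 to 3.41, highest adjusted p = 0.0148). Col3a1 from PDMS day 2 to day 4 lost its call in a fit of these groups alone (2.36, adjusted p = 0.134), as did Col3a1 in Plastic day 4 over PDMS day 2 (2.29, adjusted p = 0.308), whose alternatives were added after seeing the data. Col1a1 gained a call from PDMS day 2 to day 4 with DESeq2 (1.70) and limma-voom (2.02), and from day 2 to day 14 with limma-voom (1.55). All signs that turned belonged to differences that no setting called. Scaling by library size alone, Col3a1 at day 14 (PDMS against plastic) was 0.02 and Col1a1 from PDMS day 7 to day 14 was -0.003, and with library size less the collagens Col3a1 at day 14 was 0.01. Library size moved the median log2 fold change of all genes most from Plastic day 4 to day 14, from -0.05 to -0.21. With limma-voom, Col1a1 from PDMS day 7 to day 14 was -0.07, Col3a1 from Plastic day 7 to day 14 was 0.04 and Col1a1 from Plastic day 4 to day 14 was 0.19. With the closely alike pairs summed (a correlation over 0.99, set after seeing the data), Col3a1 at day 4 was -0.22 and its interaction with day 14 against day 4 was 0.09. With the replicate number as a block, Col3a1 from Plastic day 7 to day 14 was 0.01 and Col1a1 from Plastic day 4 to day 14 was 0.08. The block changed no call: Col3a1 from PDMS day 2 to day 4 was 2.55 (adjusted p = 0.0183) and Col1a1 1.79 (adjusted p = 0.0636). The cause of these changes was not tested. Of the 4 IDs named for likeness, 1 remained with Spearman rho and 2 with library size.

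Leaving out 1 library at a time moved PDMS over plastic at day 4 between -0.62 and 0.36 for Col1a1 and between -0.22 and 0.73 for Col3a1, and at day 14 between -0.26 and 0.1 for Col3a1. From PDMS day 2 to day 4 the range was 1.39 to 2.23 for Col1a1 and 2.04 to 3.04 for Col3a1, and to day 14 it was 0.72 to 1.77 for Col1a1. It was -0.29 to 0.03 for Col3a1 from PDMS day 4 to day 7, and -0.49 to 0.25 for Col1a1 from PDMS day 7 to day 14. On plastic it was -0.44 to 0.26 for Col3a1 from day 7 to day 14 and -0.35 to 0.57 for Col1a1 from day 4 to day 14. It was 1.64 to 2.93 for Col3a1 in Plastic day 4 over PDMS day 2. From Plastic day 4 to day 7 it was 0.31 to 1.53 for Col1a1 and 0.31 to 1.31 for Col3a1, and to day 14 it was 0.24 to 1.23 for Col3a1, where limma-voom gave 1.21. From Plastic day 7 to day 14 it was -1.27 to -0.39 for Col1a1. The interactions ran from -2.05 to -0.82 (Col1a1) and -1.37 to -0.44 (Col3a1) for day 7 against day 4, from -1.03 to -0.04 and -0.82 to 0.13 for day 14 against day 4, and from 0.46 to 1.33 and 0.24 to 0.95 for day 14 against day 7.

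For Col1a1 and Col3a1 the spread between the 3 or 4 libraries of a group, not the count, limits what can be seen: standard errors on the log2 scale were 0.58 to 0.68 between groups and 0.83 to 0.93 for interactions.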

Other observations

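Replicate 3 had the highest ratio of Col3a1 to Col1a1 reads in 5 of the 7 groups. On PDMS these were day 4 (1.45), day 7 (1.93) and day 14 (3.19), and on plastic day 4 (1.79) and day 7 (0.988). In the PDMS day 2 group replicate 1 was highest (1.24), and in Plastic day 14 it was replicate 4 (1.8). This count was made after the values were seen and was not tested.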
